A study of Bos taurus with 4 samples.

Results

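Whole small intestine was compared with muscle in cattle, with 1 sequencing library of each tissue. All 29792 rows of the deposited count tables were read, each row a gene named by its symbol, in 2 of the 4 libraries of the series. The other 2 libraries are intestinal organoids at passage 5 (P5) and passage 10 (P10), and their values are given only where they stand beside a difference between the tissues. All samples carry the strain label Hanwoo cow, and the crypts of the study came from the jejunum of healthy animals over 24 months old. The labels do not say which muscle was taken, how many animals gave each tissue, or whether both tissues came from the same animal. For each library, 500 ng of total RNA was used. The study took muscle as its control for epithelial genes and, in quantitative RT-PCR, for intestinal stem cell genes as well.

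The small intestine digests food and takes up its products through a layer of epithelial cells that rests on connective tissue, vessels, nerves, immune cells and an outer coat of smooth muscle. Its enterocytes carry microvilli, goblet cells secrete mucus, enteroendocrine cells secrete hormones, and stem cells in the crypts renew the layer. Skeletal muscle is built mainly of long multinucleate fibres, in which myosin pulls on actin in repeating units called sarcomeres. Calcium released inside the fibre starts each contraction through the troponin complex, and creatine kinase, glycogen and mitochondria supply the energy.

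The counts are reads from the 3′ ends of polyadenylated RNA, so they are not divided by gene length. A 3′ read count of 1 gene is set here against the same gene in the other tissue. The deposited counts summed to 17776273 reads in intestine and 12917720 in muscle. RN18S1, the row of 18S ribosomal RNA, took 724642 reads (4.08%) in intestine and 3054858 reads (23.6%) in muscle, and was left out of the library totals, which were then 17051631 and 9862862. With these totals, 1 read was worth 0.0587 RPM in intestine and 0.101 RPM in muscle, where RPM is a read count scaled to a library of 1000000 reads. Of the 29792 rows, 13937 had at least 50 reads in either library after RN18S1 was set aside, and these are the rows tested for size of difference. There are no replicates, so no p-value and no SD can be given. A row was called higher in 1 tissue when its RPM was at least 4-fold that of the other. A tissue with no reads was taken to be at 3 reads, and a fold computed in this way is written "at least". Ranges after a fold are exact 95% Clopper-Pearson intervals and cover counting error only. For a tissue with no reads, such an interval can start below the "at least" value. For TNNC1 it starts at 44398-fold, against 54594-fold. In whole tissue, fewer cells of a type and less RNA per cell cannot be told apart.

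The tissues differed at 4089 rows called higher in intestine (29.3% of the rows tested) and 932 called higher in muscle (6.69%). Another 5415 rows (38.9%) lay within 2-fold. The calls were lopsided, since 81.4% of them were higher in intestine, and the median row was itself 1.95-fold higher in intestine (log2 ratio 0.96). This split depended on the scaling. It was 67.9% with trimmed mean of M-values (TMM) scaling, which gave 2899 rows higher in intestine and 1368 higher in muscle, and 62.6% with quantile normalisation. The medians of gene lists, given below as log2 ratios, are therefore to be read against 0.96, and the counts of calls against 29.3% and 6.69%. The muscle library was the more concentrated, with 52.5% of its reads on 100 rows against 38.1% in intestine. The 932 rows called higher in muscle held 33.5% of the muscle reads and 1.28% of the intestine reads. The 4089 rows called higher in intestine held 34.5% of the intestine reads and 2.27% of the muscle reads.

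**Figure D1:**
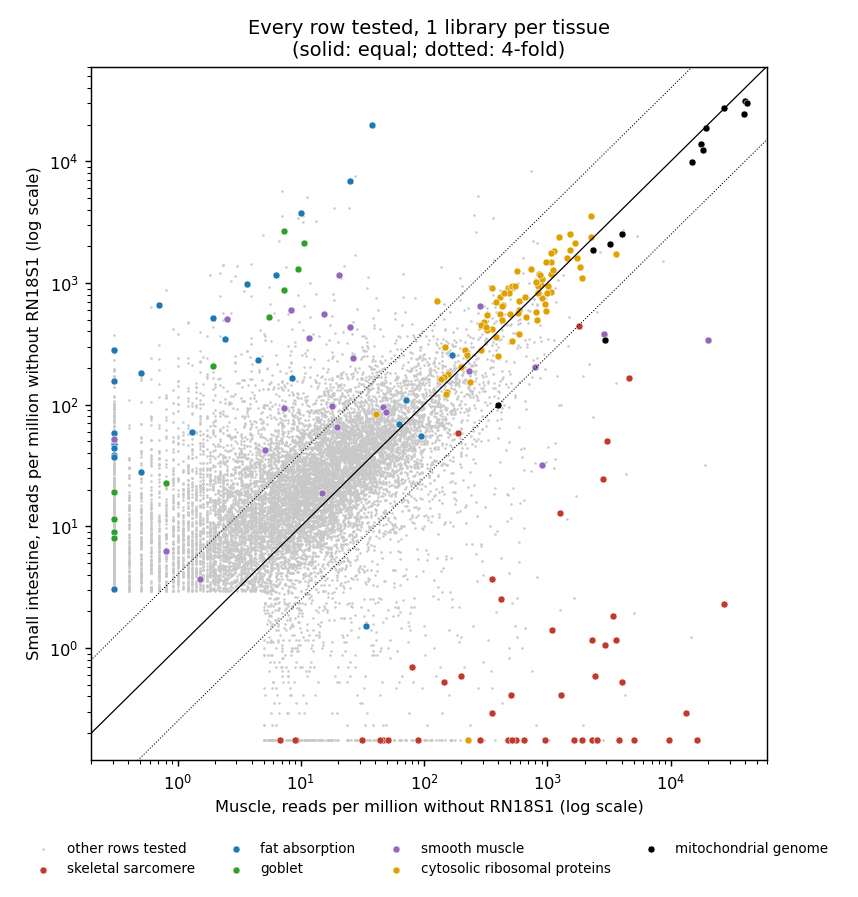
RPM of each row tested in muscle (horizontal axis) and small intestine (vertical axis), both on a log scale with RN18S1 left out, with members of 6 gene lists in colour. Rows below 3 reads are drawn at the level of 3 reads. Most sarcomere genes lie at the lower right and most fat absorption and goblet genes at the upper left, beyond the dotted 4-fold lines, while all but a few genes of the mitochondrial genome and of ribosomal proteins lie near the line of equal level.

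Genes of the contractile apparatus were the most extreme. Of the 12 rows with the smallest ratio of intestine to muscle, each over 10000-fold, 8 belong to the sarcomere list, and the others were CKM, SLN, MB and LOC112447739. MYL2, the slow regulatory light chain of myosin, had 160410 reads in muscle and 1 in intestine. The ratio was 277328-fold (49774 to 10953956) and rests on 1 intestine read. TNNC1, the slow calcium-binding subunit of troponin, had 94734 reads in muscle and 0 in intestine, and was at least 54594-fold higher. TTN, which encodes the giant elastic protein titin, had 132207 reads in muscle and 5 in intestine, or 45714-fold (19588 to 140791) more in RPM. In RefSeq (assembly ARS-UCD2.0) a lncRNA row, LOC112442546, overlaps TTN, and it had 50044 reads in muscle and 33 in intestine. ACTA1, skeletal actin, was the most read nuclear protein-coding gene of the muscle library, with 264562 reads in muscle and 39 in intestine, and was 11728-fold (8579 to 16493) higher. MB, the oxygen-storing protein myoglobin, had 145227 reads in muscle and 21 in intestine (11956-fold, 7821 to 19315).

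Of the 50 sarcomere genes listed, 49 had at least 50 reads, 48 were called higher in muscle and none in intestine, against 6.69% and 29.3% of all rows. Their median log2 ratio was -10.28, against 0.96 for all rows. Together they held 14.9% of the muscle reads and 0.149% of the intestine reads. The exception that was tested but not called was CAPZA2, a subunit of the actin capping protein that most cells use, with 1870 reads in muscle and 990 in intestine. The smallest called differences were those of TPM1 and DES, genes that smooth muscle also uses. TPM1, a tropomyosin, had 17905 reads in muscle and 7596 in intestine (4.08-fold, 3.97 to 4.19, higher), and DES, the intermediate filament protein desmin, had 28404 reads in muscle and 6449 in intestine (7.62-fold, 7.41 to 7.83, higher).

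The muscle library carried both slow and fast fibre genes. Of the 7 striated myosin heavy chains, MYH7 of slow fibres took 48.3% of their muscle reads and MYH2 of fast oxidative fibres 47.8%. The fast chains MYH1 and MYH4 had 455 and 90 muscle reads, and the developmental chains MYH3 and MYH8 had 26 and 67. All 7 chains were at or under 5 reads in intestine. Both members of each troponin pair were read in muscle. TNNC1 and TNNT1 of slow fibres had 94734 and 9369 reads, TNNC2 and TNNT3 of fast fibres 4741 and 5106, and the inhibitory subunits TNNI1 (slow) and TNNI2 (fast) 873 and 6310. The 6 troponin rows together had 1 read in intestine. Of the light chains, the fast MYLPF and MYL1 had 49349 and 37428 muscle reads and none in intestine.

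Since the labels name no type of muscle, heart and smooth muscle genes were read in it. NPPA, MYL7, MYL4, TNNT2, NKX2-5 and NPPB had no reads in muscle, MYBPC3 had 1 and TNNI3 7. A count of 0 was taken as up to 3 reads, or 0.304 RPM. MYH6, the atrial myosin, had 1370 muscle reads and lies beside the near-identical MYH7, so its count is uncertain. ACTC1, the main actin of heart, had 6498, and CORIN, a protease of heart muscle, 640. RYR2, the calcium release channel of heart, had 45. Of the 4 cardiac rows tested, 2 were called higher in muscle and 1, GATA4, with 17 muscle reads, in intestine (median -0.87). The smooth muscle genes ACTG2 and MYH11 had 25 and 153 reads in muscle. Of the 23 rows of the smooth muscle list, 12 were called higher in intestine and 3, TPM2, PLN and DES, in muscle. The list summed to 25452 RPM in muscle and 6198 in intestine, with TPM2 at 20080 RPM in muscle. Of the 12 rows of the cardiac list, 6 were at 0 in muscle and 6 were not.

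Genes that couple the nerve signal to contraction followed the sarcomere. Of 30 such genes, 29 were tested, 26 were called higher in muscle and none in intestine (median log2 ratio -7.28). SLN, sarcolipin, a small inhibitor of the calcium pump, had 22763 reads in muscle and 0 in intestine and was at least 13118-fold higher. CACNA1S, the voltage sensor of the fibre membrane, had 1235 reads in muscle and 0 in intestine. RYR1, the calcium release channel, had 1565 reads in muscle and 24 in intestine (113-fold, 75.5 to 176, higher), and CASQ1, which binds calcium in the store, had 6137 reads in muscle and 17 in intestine (624-fold, 389.5 to 1072, higher), with near-equal counts on an overlapping lncRNA row. CHRNA1, a subunit of the acetylcholine receptor at the nerve contact, had 1152 reads in muscle and 0 in intestine. The 3 tested but not called were CHRNE, CHRNB1 and MTM1, and PVALB, the calcium buffer parvalbumin, had only 9 muscle reads.

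Of 36 genes of muscle energy supply, all 36 were tested, 24 were called higher in muscle and 1 in intestine (median -4.44). CKM, muscle creatine kinase, which buffers ATP, had 36108 reads in muscle and 0 in intestine, and COX6A2, a muscle form of a cytochrome c oxidase subunit, had 10128 reads in muscle and 0 in intestine. They were at least 20809-fold and at least 5837-fold higher in muscle. PYGM, muscle glycogen phosphorylase, had 5552 reads in muscle and 44 in intestine (218-fold, 162 to 301). PPP1R3A, a glycogen-targeting subunit of protein phosphatase, had 2979 reads in muscle and 0 in intestine. Genes of fuel use that both tissues need were closer. ACADM, of fatty acid oxidation, had 991 reads in muscle and 812 in intestine (2.11-fold, 1.92 to 2.32, higher in muscle), and PPARGC1A, a regulator of mitochondrial genes, 492 reads in muscle and 559 in intestine, within 2-fold in RPM. The member higher in intestine, PYGL, is the liver form of glycogen phosphorylase.

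Most regulators of the muscle lineage were called higher in muscle. Of 28 rows, 22 were tested and 18 called higher in muscle, with a median log2 ratio of -7.27, and the 4 not called were MEF2A, MEF2D, KLF15 and IL15, which other tissues use as well. MYF6, the myogenic factor of mature fibres, had 2698 reads in muscle and 0 in intestine, MYOG had 395 and 0, and MYOD1 178 and 0. ANKRD1 and ANKRD2, ankyrin repeat proteins induced by stretch, had 5520 and 7988 muscle reads against 0 and 4. MYF5, of muscle progenitors, had 23 muscle reads, and MSTN, the growth inhibitor myostatin, 6. CDH15, a cadherin of satellite cells (the stem cells of muscle), had 69 reads in muscle and 0 in intestine, and of the 4 satellite cell rows tested 2 were called higher in muscle and 1 in intestine, the last being the chemokine receptor CXCR4. MYMK, needed for myoblast fusion, had no reads in either tissue.

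**Figure D2:**
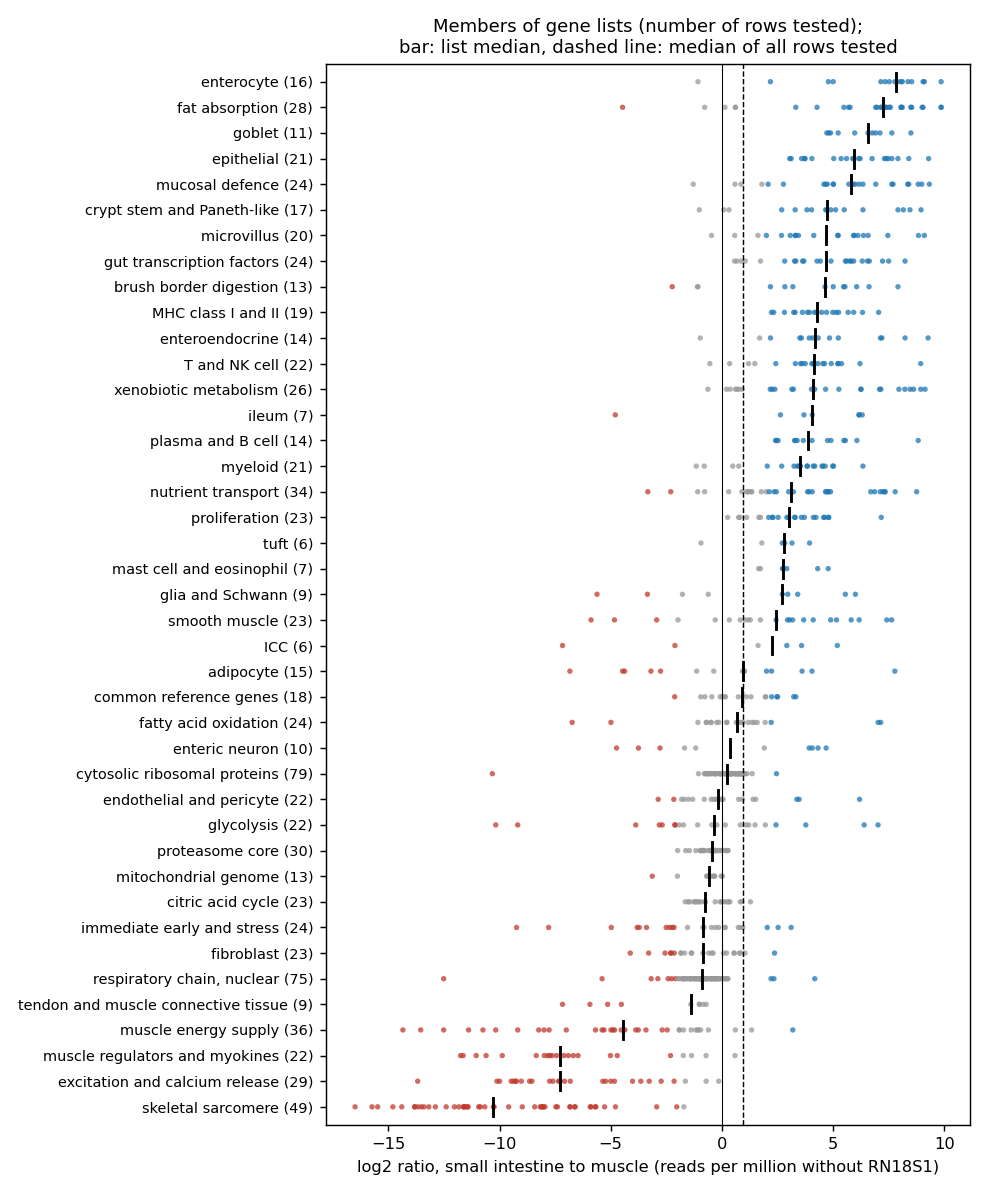
The log2 ratio of small intestine to muscle (horizontal axis) of each row tested, in the 41 gene lists with at least 6 rows tested, ordered by list median. Points beyond 4-fold are blue (higher in intestine) or red (higher in muscle), bars are list medians, and the dashed line is the median of all rows tested (0.96). The medians run from -10.28 for the sarcomere to 7.85 for enterocyte genes.

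Connective tissue and vessel genes differed much less than the fibre and epithelial genes. Of 23 fibroblast rows tested, 6 were called higher in muscle and 1 in intestine (median -0.85), beside 6.69% and 29.3% of all rows. Of these 23, 21 lay below the median of all rows (0.96). DCN, the proteoglycan decorin, had 9481 reads in muscle and 3351 in intestine (4.89-fold, 4.70 to 5.09, higher in muscle). COL1A1 had 3149 reads in intestine and 2512 in muscle, within 2-fold in RPM, while POSTN, periostin, had 1376 and 154 and was 5.17-fold (4.37 to 6.14) higher in intestine. Of the tendon and muscle connective tissue genes, 9 were tested and 4 called higher in muscle (median -1.40). THBS4 had 1827 reads in muscle and 22 in intestine (144-fold, 94.5 to 229.7), and COMP had 106 reads in muscle and 0 in intestine. SCX and TNMD, transcription factor and membrane protein of tendon cells, had 43 and 26 muscle reads, too few to be tested.

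Of 22 endothelial and pericyte rows tested, 3 were called higher in intestine and 2 in muscle, beside 29.3% and 6.69% of all rows. PECAM1 had 220 reads in intestine and 178 in muscle, and CDH5, the cadherin of vessel walls, had 166 reads in intestine and 103 in muscle, both within 2-fold in RPM. The 3 called higher in intestine were RGS5, FLT4 and PLVAP. RGS5, a pericyte gene, had 1648 reads in intestine and 13 in muscle (73.3-fold, 42.8 to 138), and FLT4, a receptor of lymphatic vessels, had 308 reads in intestine and 16 in muscle (11.1-fold, 6.75 to 19.7). PLVAP, of the diaphragms of fenestrated capillaries, had 592 reads in intestine and 33 in muscle. ABCC9 and CLDN5 were the 2 called higher in muscle. CLDN5, the main claudin of endothelium, had 62 reads in muscle and 24 in intestine. The list median (-0.15) turned positive when RN18S1 was kept in the totals (0.18) or at least 200 reads were required (0.41).

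Of 15 fat cell rows tested, 5 were called higher in intestine, near the 29.3% of all rows, and 5 in muscle, where 6.69% of all rows were. The list median of 0.93 was close to the 0.96 of all rows. ADIPOQ, the hormone adiponectin, had 198 reads in muscle and 1 in intestine, and FABP4, the fatty acid carrier of fat cells, had 383 reads in muscle and 32 in intestine, with ratios of 342-fold (60.7 to 13588) and 20.7-fold. LEP and PLIN1 had 9 and 36 reads in muscle. The lipid synthesis genes FASN and SCD had 691 and 2130 reads in intestine against 198 and 607 in muscle.

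In intestine, genes for the uptake and packaging of fat stood out. Of 30 rows, 28 were tested, 23 were called higher in intestine and 1 in muscle (median log2 ratio 7.24). FABP1, a fatty acid carrier of enterocytes and liver, was the most read nuclear protein-coding gene of the intestine library, with 341994 reads in intestine and 373 in muscle, and was 530.3-fold (479 to 589) higher. FABP2, the intestinal carrier, had 117512 reads in intestine and 245 in muscle (277-fold, 245 to 316). The lncRNA row LOC112447032 overlaps FABP2 in RefSeq and had near-equal counts of 128614 and 271, so the reads of these rows cannot be told apart. MTTP, which loads lipid onto the protein APOB, had 4832 reads in intestine and 3 in muscle, with a ratio of 932-fold (319 to 4519). APOA4 and APOB, proteins of the lipid particles that leave the enterocyte, had 63699 and 16622 intestine reads and 99 and 36 in muscle. NPC1L1, the cholesterol transporter, had 993 reads in intestine and 0 in muscle.

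The members tested but not called higher in intestine were DGAT2, SAR1B, PLIN2, CD36 and DGAT1. DGAT2, a triglyceride synthase, had 332 reads in muscle and 26 in intestine and was 22.1-fold (14.8 to 34.3) higher in muscle, while its counterpart DGAT1 had 1862 reads in intestine and 702 in muscle, within 4-fold. CD36, a fatty acid receptor of both tissues, had 4394 reads in intestine and 1668 in muscle. Of all rows tested, the largest ratio towards intestine, with counts under 3 taken as 3, was that of RDH16. This enzyme of retinoid metabolism had 6334 reads in intestine and 3 in muscle, a ratio of 1221-fold (418 to 5923). The related membrane proteins TM4SF4 and TM4SF5 had 15012 and 11283 intestine reads and 8 and 7 muscle reads, and PRAP1 had 10893 and 6.

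Digestion and transport genes of the brush border were more uneven. Of 20 rows of brush border digestion, 13 were tested, 10 were called higher in intestine and 1, the peptidase NAALADL1, in muscle (35 reads in intestine and 95 in muscle). SI, sucrase-isomaltase, had 2288 reads in intestine and 53 in muscle (24.97-fold, 19.02 to 33.4), MGAM, maltase-glucoamylase, 2735 and 34, and MEP1B, a meprin, 1259 and 0. ANPEP, aminopeptidase N, which defines the brush border in many mammals, had 125 reads in intestine and 152 in muscle. It differed by 2.10-fold (1.65 to 2.69) in favour of muscle. In organoids, ANPEP had 28104 reads at P5 and 243 at P10. ENPEP, another peptidase, had 114 and 141 reads, with near-equal counts of 115 and 173 on an overlapping lncRNA row. ALPI, intestinal alkaline phosphatase, had 17 reads in intestine and 0 in muscle, and LCT, lactase, 24 and 0, too few to be tested.

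Of 38 transport genes, 34 were tested, 21 were called higher in intestine and 2 in muscle (median 3.11). S100G, calbindin, which carries calcium across the enterocyte, had 69863 reads in intestine and 182 in muscle (222-fold, 192 to 258), with near-equal counts on the overlapping gene CTPS2. SLC5A1, the sodium-glucose transporter, had 847 reads in intestine and 2 in muscle, SLC15A1, the peptide transporter, 3211 and 67, and SLC9A3, the sodium-proton exchanger, 5258 and 7. SLC6A19, the main neutral amino acid transporter of the brush border, was called higher in muscle. It had 16 reads in intestine and 93 in muscle, against 18937 in P5 organoids. The other such gene was SLC29A1, a nucleoside transporter, with 228 reads in intestine and 648 in muscle. SLC26A3, the chloride-bicarbonate exchanger, had 34 and 23 reads.

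The structural genes of microvilli and of the epithelium were nearly all higher in intestine. Of 20 microvillus rows tested, 17 were called higher in intestine, and of 21 epithelial rows all 21 were. VIL1, villin, which bundles actin in the microvillus, had 2865 reads in intestine and 0 in muscle, a difference of at least 552-fold. The cell surface gene EPCAM had 5725 reads in intestine and 56 in muscle (59.1-fold, 45.5 to 78.4), and the keratin KRT20 23086 and 75 reads (178-fold, 142 to 226). PIGR, which carries antibodies across the epithelium, had 60528 reads in intestine and 103 in muscle (339.9-fold, 280.2 to 416). CLDN4, a tight junction claudin, had 3271 reads in intestine and 0 in muscle. The 3 microvillus rows tested but not called were BAIAP2L1, EPS8 and FSCN1. TMIGD1, a membrane protein of the brush border, had 39 reads in intestine and 38 in muscle, under the 50 reads of the test. In organoids, TMIGD1 had 14255 reads at P5 and 649 at P10.

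Of the 16 enterocyte rows tested, many of them named above, 15 were called higher in intestine, and the exception was ANPEP. Genes of secretory cells were mostly called higher in intestine as well. All 11 goblet rows tested were called higher in intestine (median 6.58). MUC2, the gel-forming mucin, had 15017 reads in intestine and 72 in muscle (121-fold, 95.7 to 154), FCGBP, which binds to mucus, 45246 and 72, and ATOH1, the factor that sets secretory fate, 195 and 0. Of 26 enteroendocrine rows, 14 were tested and 12 called. CHGA, a protein of hormone granules, had 3219 reads in intestine and 0 in muscle. The hormones SST, GIP and CCK had 4141, 3814 and 1569 intestine reads against 17, 15 and 0 in muscle. CPE, a peptide-processing enzyme of many cell types, had 242 reads in intestine and 274 in muscle and was not called. Tuft cell genes had few reads. Of 15 rows, 6 were tested and 4 called, the tuft cell factor POU2F3 had 13 intestine reads and TRPM5 none.

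Crypt and cell cycle genes were mostly called higher in intestine. Of 17 crypt rows tested, 14 were called, and TNFRSF19, with 78 reads in intestine and 91 in muscle, ZNRF3 and LRIG1 were not (median 4.72). OLFM4, a crypt base gene, had 1489 reads in intestine and 0 in muscle, and SOX9, a factor of crypt cells, had 550 and 7 (45.5-fold, 21.9 to 114). LGR5, the defining stem cell gene, had 23 reads in intestine and 3 in muscle, too few to be tested. Of 23 cell cycle rows, 17 were called higher in intestine and none in muscle (median 3.00). MKI67 had 128 reads in intestine and 0 in muscle, and TOP2A, which untangles DNA, 423 and 13. PCNA, used in DNA synthesis and repair, had 524 reads in intestine and 172 in muscle, within 4-fold.

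Transcription factors of gut epithelium were mostly higher in intestine. Of 30 rows, 24 were tested and 19 called higher in intestine, and none in muscle. HNF4A had 1652 reads in intestine and 12 in muscle (79.6-fold, 45.5 to 154), GATA6 1457 and 9, and CDX1 112 and 0. CDX2, a master factor of intestinal fate, had only 4 reads in intestine and 0 in muscle, against 199 in P5 and 24 in P10 organoids. GATA4, a factor of the proximal small intestine, had 2919 reads in intestine and 17 in muscle (99.3-fold, 61.9 to 171).

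Genes of other gut regions and of neighbouring organs were read in the intestine library, since the labels tie only the crypts of the study to the jejunum. Of the 7 ileum rows tested, 6 were called higher in intestine, among them the bile acid exporter subunit SLC51A, with 715 reads in intestine and 32 in muscle. The ileal bile acid genes SLC10A2 and FABP6 had 0 and 30 reads in intestine, fewer than the 30 and 480 in muscle. The hormones PYY and NTS of the distal gut had 6 and 11 reads, and GIP, CCK and MLN of the proximal gut 3814, 1569 and 196. TFF2, a trefoil peptide best known from stomach glands, had 3342 reads in intestine and 0 in muscle, among the 12 largest ratios, and TFF1 had 327 and 0. They were the 2 stomach rows tested. The stomach genes GKN1, GKN2, ATP4A and CLDN18 had no reads in intestine. Of 5 pancreas and 5 liver rows tested, 3 and 4 were called higher in intestine. SPINK1, a trypsin inhibitor, had 24296 reads in intestine and 39 in muscle, while INS, PNLIP and CTRC had none in intestine, and ALB, the main plasma protein made by liver, had 12. F2, prothrombin, was the only one of these called higher in muscle, with 100 reads in muscle and 12 in intestine. Of the colon list, 2 rows were tested and 2 called higher in intestine. The colon factor HOXB13 had no reads in either tissue.

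Smooth muscle genes of the gut wall were read in intestine. Of 23 smooth muscle rows, 12 were called higher in intestine and 3 in muscle (median 2.44). ACTG2, enteric smooth muscle actin, had 8605 reads in intestine and 25 in muscle (199-fold, 135 to 308). CNN1, calponin, had 10251 and 82 (72.3-fold, 58.2 to 91.00), and MYH11, smooth muscle myosin, 9447 and 153 (35.7-fold, 30.4 to 42.2), with near-equal counts on the overlapping gene NDE1. The 3 called higher in muscle were TPM2, PLN and DES, which striated muscle shares. TPM2 had 198049 muscle reads and 5806 in intestine, and PLN, phospholamban, 8985 and 546. The gene CEP85L overlaps PLN and had near-equal counts in muscle, with 9878 reads in muscle and 770 in intestine. Of the interstitial cells of Cajal, the pacemaker cells of the gut wall, KIT and ANO1 had 525 and 187 intestine reads and 40 and 9 in muscle. Of 6 rows of these cells tested, 3 were called higher in intestine and 2 in muscle (median 2.28). The third called higher in intestine was EDN3, with 1139 reads in intestine, 18 in muscle and 3128 in P5 organoids. The 2 called higher in muscle were THBS4, with 22 reads in intestine and 1827 in muscle, and PRKCQ, with 218 and 544.

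Nerve genes had few reads in both tissues. Of 24 neuron rows, 10 were tested, 4 were called higher in intestine and 3 in muscle. VIP, a relaxing transmitter of the gut, had 104 reads in intestine and 0 in muscle, while NOS1, nitric oxide synthase, had 5 reads in intestine and 77 in muscle and NEFM, a neurofilament, 10 and 78. Of 9 glial rows tested, 5 were called higher in intestine and 2 in muscle (median 2.72). S100B, a calcium-binding protein of glia, had 163 reads in intestine and 958 in muscle. SOX10, the defining factor of glia, had 2 and 0 reads. The median of the neuron list changed sign with the scaling, from 0.37 to -0.32 with TMM.

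Immune genes were mostly called higher in intestine. All 14 plasma and B cell rows tested were called higher in intestine, as were 18 of 22 T and NK cell rows and 17 of 21 myeloid rows, and none of the 3 lists had a row called higher in muscle. Their medians were 3.86, 4.12 and 3.53. JCHAIN, which joins antibody units for transport into the gut, had 86692 reads in intestine and 110 in muscle (456-fold, 378 to 555). LOC524810, with the synonym IGHV in RefSeq, had 96348 reads in intestine and 70 in muscle (796-fold, 630.1 to 1021), and LOC100294952, a V segment in RefSeq, 4550 and 2. The B cell surface genes MS4A1 and CD22 had 11 and 16 intestine reads, and TNFRSF17, a receptor of plasma cells, 350. GZMB, a protease of killer cells, had 2558 reads in intestine and 3 in muscle, and CD3E, of the T cell receptor, 891 and 22 (23.4-fold, 15.4 to 37.6).

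Of the macrophage genes, C1QA had 6027 reads in intestine and 332 in muscle (10.5-fold, 9.40 to 11.8), while CD163 and CD14 were within 4-fold, with 124 and 123 reads in intestine and 159 and 123 in muscle. Of 7 mast cell and eosinophil rows tested, 5 were called higher in intestine, among them FCER1A, a chain of the IgE receptor, with 143 reads in intestine and 0 in muscle. The haemoglobin chain HBB had 3 reads in intestine and 0 in muscle, and of the erythroid list 1 row was tested. The neutrophil gene S100A8 had 6 reads in intestine and 5 in muscle, and S100A9 had none in either. All 19 rows tested of the major histocompatibility complex (antigen presentation) list were called higher in intestine (median 4.26). BOLA-DRB3, a class II chain, had 28674 reads in intestine and 272 in muscle (60.98-fold, 54.1 to 68.96), and CD74, which accompanies class II chains, 19046 and 347. JSP.1, a class I row, had 89134 and 2688. Of 42 mucosal defence rows, 24 were tested and 20 called higher in intestine (median 5.81). DMBT1, a secreted scavenger of microbes, had 60833 reads in intestine and 69 in muscle (509.9-fold, 403 to 656), and REG3G, a bactericidal lectin, 11549 and 55. LYZ2, a lysozyme, had 1703 reads in intestine and 0 in muscle, and EBD, the enteric defensin, 265 and 44, against 121456 in P5 organoids.

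**Figure D3:**
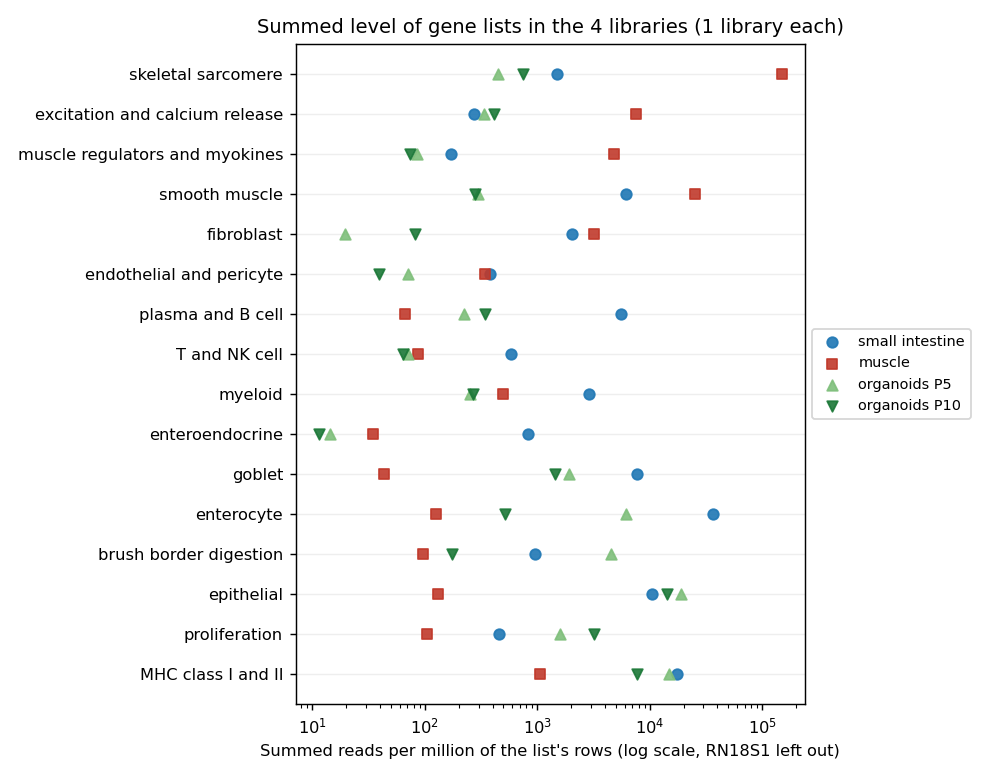
Summed RPM of the rows of 16 gene lists (horizontal axis, log scale, RN18S1 left out) in small intestine (circles), muscle (squares) and organoids at P5 and P10 (triangles), 1 library each. The plasma and B cell, T and NK cell, myeloid, enteroendocrine, fibroblast and endothelial lists were lower in both organoid libraries than in intestine, while the epithelial and proliferation lists were higher in both.

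Members of many of the gene families chosen here were called in opposite directions. These families were chosen with earlier results of these data known, and no share for gene families in general was computed. The counts therefore describe the chosen families only. Of 28 families of related genes, with 95 members, 19 had at least 1 member called higher in intestine and another called higher in muscle. Another 6 had calls only in the direction of muscle and 3 only in the direction of intestine. With TMM, upper-quartile or DESeq2 scaling, 15 of the 28 had calls in both directions. Reads with several alignments were counted by the authors, so members with near-identical sequence may share reads.

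Of the actins, ACTA1 took 96.1% of the muscle reads of the family, and ACTB and ACTG1, the actins of non-muscle cells, took 55.7% and 28.6% of the intestine reads. ACTB had 45036 reads in intestine and 2598 in muscle (10.03-fold, 9.64 to 10.4). ACTC1, the heart form, had 6498 reads in muscle and 2 in intestine. The myosins split the same way, with MYH9 and MYH14 of non-muscle cells 7.34-fold (6.26 to 8.66) and 5.30-fold (4.45 to 6.36) higher in intestine, and MYH10 near equal (609 reads in intestine and 359 in muscle). Of the tropomyosins, TPM2, TPM3 and TPM1 were higher in muscle and TPM4, of non-muscle cells, was 5.97-fold (5.37 to 6.65) higher in intestine. Of the alpha-actinins, ACTN2 and ACTN3 of the Z disc had 10684 and 500 muscle reads and 24 and 0 in intestine, while ACTN4 and ACTN1 were 6.40-fold (5.62 to 7.30) and 4.18-fold (3.72 to 4.71) higher in intestine.

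**Figure D4:**
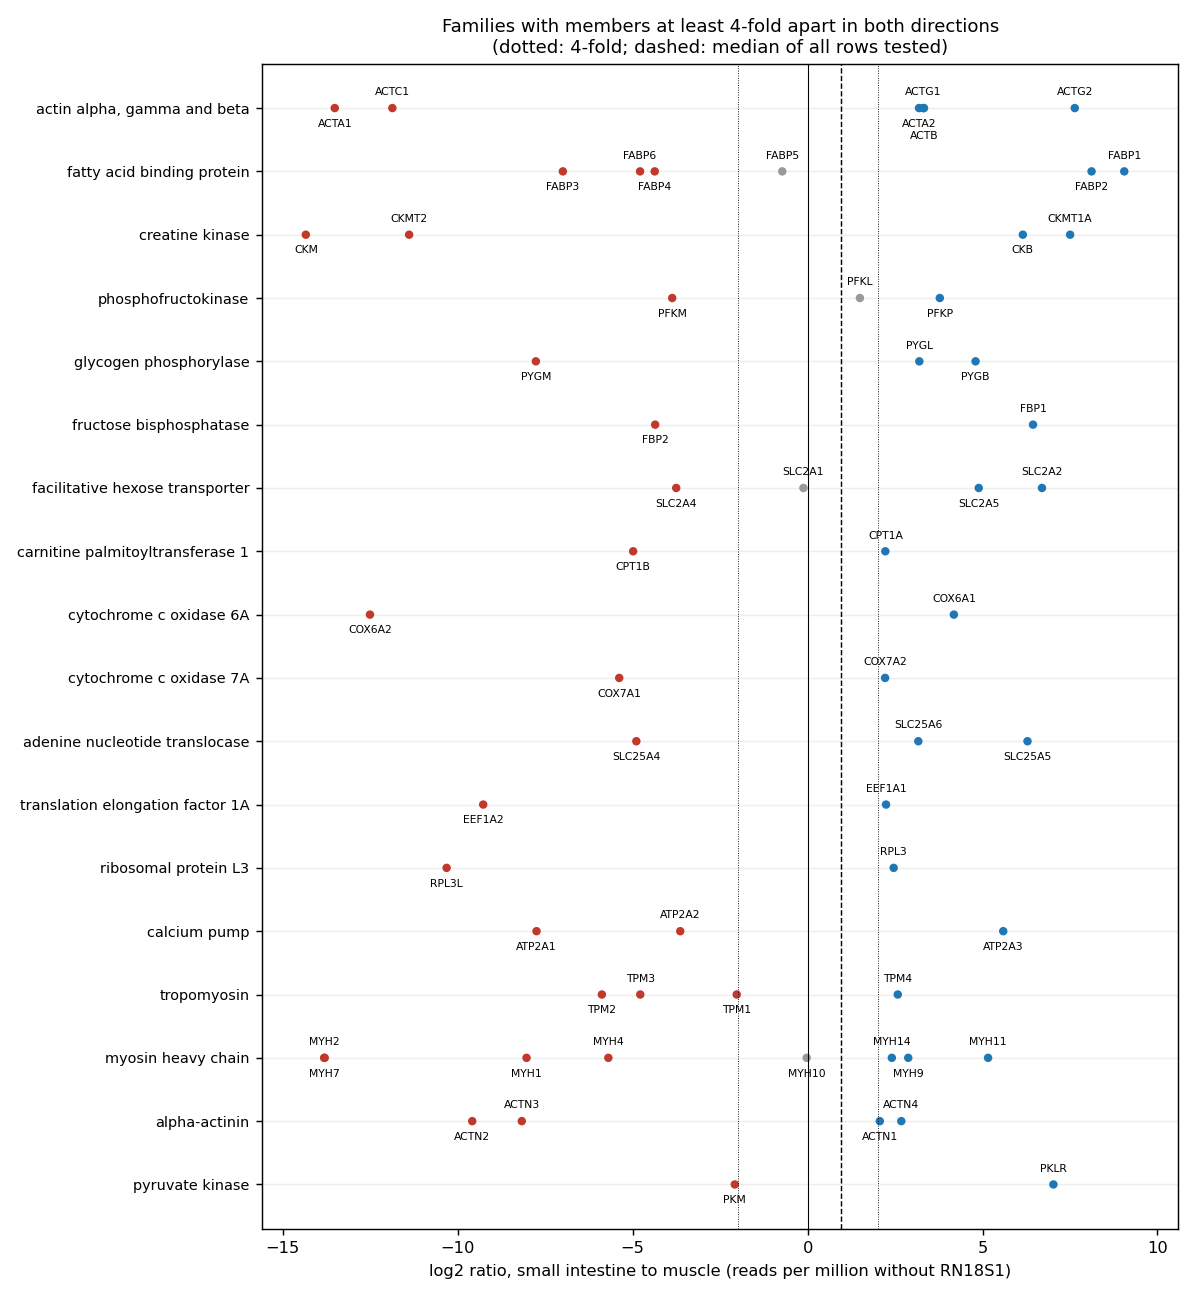
The log2 ratio of small intestine to muscle (horizontal axis) for each member tested of 18 gene families with members called in both directions. Dotted lines mark 4-fold and the dashed line the median of all rows tested (0.96). Each family has a red point on the left (higher in muscle) and a blue point on the right (higher in intestine), such as ACTA1 at -13.52 and ACTG2 at 7.64 among the actins.

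The fatty acid carriers were FABP1 and FABP2 in intestine and FABP3 in muscle. FABP3, the carrier of heart and muscle, had 14332 reads in muscle and 194 in intestine (128-fold, 111 to 148, higher in muscle) and took 88.8% of the muscle reads of the family. FABP5, the epidermal form, had 346 reads in intestine and 331 in muscle, within 2-fold in RPM. Creatine kinase was CKM and CKMT2 in muscle and CKB and CKMT1A in intestine. CKB, the brain-type enzyme, had 6271 reads in intestine and 51 in muscle (71.1-fold, 54.02 to 95.6), and CKMT1A, its mitochondrial counterpart outside muscle, 3766 and 12 (182-fold, 104 to 352).

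Several enzymes of sugar metabolism differed by member. Of 22 glycolysis rows tested, 4 were called higher in intestine and 7 in muscle (median -0.34). ALDOA, the aldolase of muscle, had 11847 reads in muscle and 2913 in intestine (7.03-fold, 6.75 to 7.33, higher in muscle). PFKM was 14.6-fold (12.7 to 16.9) higher in muscle and PFKP 13.7-fold (10.8 to 17.6) higher in intestine. PYGM was higher in muscle, and PYGB, the brain-type phosphorylase, had 626 reads in intestine and 13 in muscle (27.9-fold, 16.2 to 52.6, higher in intestine). PYGL had near-equal counts on the overlapping gene ABHD12B. FBP1 and FBP2, fructose bisphosphatases, went 86.99-fold (47.2 to 182) towards intestine and 20.5-fold (17.6 to 24.02) towards muscle. PKLR, the pyruvate kinase of liver and red cells, had 1352 reads in intestine and 6 in muscle (130.3-fold, 59.7 to 356, higher in intestine), and PKM was 4.23-fold (3.99 to 4.49) higher in muscle.

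For enolase and phosphoglycerate mutase, the call was in muscle alone. ENO3 and PGAM2, their muscle forms, had 7330 and 2685 muscle reads and 11 and 8 in intestine. ENO1 and PGAM1, used by most cells, were 3.89-fold (3.61 to 4.18) and 2.12-fold (1.93 to 2.34) higher in intestine, under the 4-fold limit. The sugar transporters were SLC2A2 and SLC2A5 in intestine, with 539 and 154 reads and none in muscle, and the insulin-regulated SLC2A4 in muscle, with 860 reads in muscle and 110 in intestine. SLC2A1 was near equal, with 70 reads in intestine and 44 in muscle. CPT1B and CPT1A, which admit fatty acids to the mitochondrion, were 31.7-fold (22.5 to 46.2) higher in muscle and 4.66-fold (3.84 to 5.71) higher in intestine.

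Members differed in the same way among mitochondrial and ribosomal subunits. COX6A1 had 8213 reads in intestine and 262 in muscle (18.1-fold, 16.03 to 20.6, higher in intestine), while COX6A2 had no reads in intestine. COX7A1 had 4596 reads in muscle and 190 in intestine (41.8-fold, 36.2 to 48.6, higher in muscle), and COX7A2 was 4.64-fold (3.89 to 5.57) higher in intestine. COX8B did not follow it, with 7715 reads in intestine and 8632 in muscle, and its row overlaps NBAS in RefSeq, which had 12845 and 9525. The exchanger of ATP and ADP was SLC25A4 in muscle, with 23058 reads in muscle and 1338 in intestine, and SLC25A5 and SLC25A6 in intestine, 77.95-fold (45.5 to 147) and 8.96-fold (8.36 to 9.63) higher. EEF1A2 had 12536 reads in muscle and 35 in intestine (619-fold, 445 to 889, higher in muscle), and EEF1A1, the elongation factor of most cells, was 4.73-fold (4.51 to 4.96) higher in intestine. RPL3L, a muscle form of a ribosomal protein, had 2218 reads in muscle and 0 in intestine, and RPL3 was 5.50-fold (5.19 to 5.83) higher in intestine. Of the calcium pumps, ATP2A1 had 8096 reads in muscle and 65 in intestine and ATP2A2 12172 and 1686. ATP2A2 was thus the most read pump of both tissues, and ATP2A3, with 250 reads in intestine and 2 in muscle, was the one called higher in intestine (72.3-fold, 19.8 to 600.3).

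Summed over the members, 9 of the 28 families lay within 2-fold and 10 lay over 4-fold apart. Among those within 2-fold, the elongation factors summed to 953 RPM in intestine and 1472 in muscle. The adenine nucleotide translocases lay between these limits, at 935 and 2423. Among those far apart, the tropomyosins summed to 1177 RPM in intestine and 26480.5 in muscle, the calcium pumps to 117 and 2055, and the fatty acid binding proteins to 26983 and 1637.

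Few rows of the core machinery of the cell were called. Of 23 citric acid cycle rows and 30 proteasome rows, none was called in either direction, with medians of -0.75 and -0.46. Of 79 ribosomal protein rows, RPL3 and RPL3L were the only calls, and the median was 0.24, or -0.45 with TMM. These medians lie below the 0.96 of all rows. Of 75 nuclear genes of the respiratory chain, 7 were called higher in muscle and 3 in intestine (median -0.90), beside 6.69% and 29.3% of all rows. The 3 were COX6A1, COX7A2 and COX8A, which had 262, 141 and 290 reads in muscle.

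The 13 protein genes of the mitochondrial genome held 17.5% of the intestine reads and 23.02% of the muscle reads, with a median log2 ratio of -0.56 (0.005 with quantile normalisation). After RN18S1, the most read rows of both libraries were among them. COX3 had 515035 reads in intestine and 406554 in muscle, and CYTB 467560 and 264777, near equal in RPM (0.03, log2). ATP8 was the only one called, with 29045 reads in muscle and 5739 in intestine (8.75-fold, 8.51 to 9.003, higher in muscle), and it overlaps ATP6. Besides CYTB and ND1, the most read rows near equal included RPL13A, RPS24, RPS28, RPS10 and CHCHD2. RPL13A had 40360 reads in intestine and 22462 in muscle.

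Few genes of fatty acid oxidation were called. Of 24 such rows, 3 were called higher in intestine and 2 in muscle, beside 29.3% and 6.69% of all rows. The other 19 lay within 4-fold. ACSL5, which activates fatty acids, had 5880 reads in intestine and 24 in muscle (142-fold, 95.2 to 221). BDH1, of ketone body use, had 430 reads in muscle and 7 in intestine (106-fold, 51.1 to 266, higher in muscle). Genes of xenobiotic metabolism, the handling of foreign compounds, were mostly higher in intestine, with 19 of 26 rows tested called higher in intestine and none in muscle. CYP3A4 had 1970 reads in intestine and 8 in muscle (142-fold, 72.1 to 330.4), and UGT1A1, a conjugating enzyme, 14699 and 34 (250.1-fold, 179 to 361).

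Of 24 immediate early and stress rows tested, 3 were called higher in intestine and 10 in muscle, among them the small heat shock proteins. CRYAB, a chaperone of the sarcomere, had 187690 reads in muscle and 539 in intestine and was 602-fold (553 to 656) higher. HSPB7 had 5124 reads in muscle and 40 in intestine (222-fold, 162 to 310.4), HSPB8 12797 and 1687, and HSPB6 5982 and 738. The general chaperones HSP90AA1 and HSPA1A were within 2-fold, with 9392 and 957 muscle reads and 11775 and 1358 intestine reads. Of the immediate early genes, FOS had 405 reads in muscle and 389 in intestine (1.80-fold, 1.56 to 2.07, higher in muscle), JUN had 5388 reads in muscle and 1977 in intestine (4.71-fold, 4.47 to 4.96, higher in muscle), and MYC 90 reads in intestine and 6 in muscle.

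Common reference genes were called about as often as other rows. Of 18 such genes, 5 were called higher in intestine and 1 in muscle, beside 29.3% and 6.69% of all rows, and their log2 ratios ran from -2.12 to 3.33. GAPDH had 24912 reads in muscle and 9909 in intestine (4.35-fold, 4.25 to 4.45, higher in muscle), and B2M 58020 and 3568 (9.41-fold, 9.09 to 9.73, higher in intestine). The 18S row RN18S1 itself was at 42497 reads per 1000000 other reads in intestine and 309733 in muscle. It was at 50516 in P5 organoids and 2644 in P10 organoids, so it also differed widely between the organoid libraries. The libraries were primed on polyadenylated RNA, and whether these reads follow the amount of 18S RNA was not tested. RPS9, SDHA and HPRT1 were among those nearest to 0 with these totals. RPS9 had 3452 reads in intestine and 1977 in muscle, and the overlapping row LOC107131323 had near-equal counts of 3411 and 1937. RPLP0 (43195 reads in intestine and 14936 in muscle) lay nearest to 0 with TMM, and its counts were near equal to those of an overlapping lncRNA row.

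**Figure D5:**
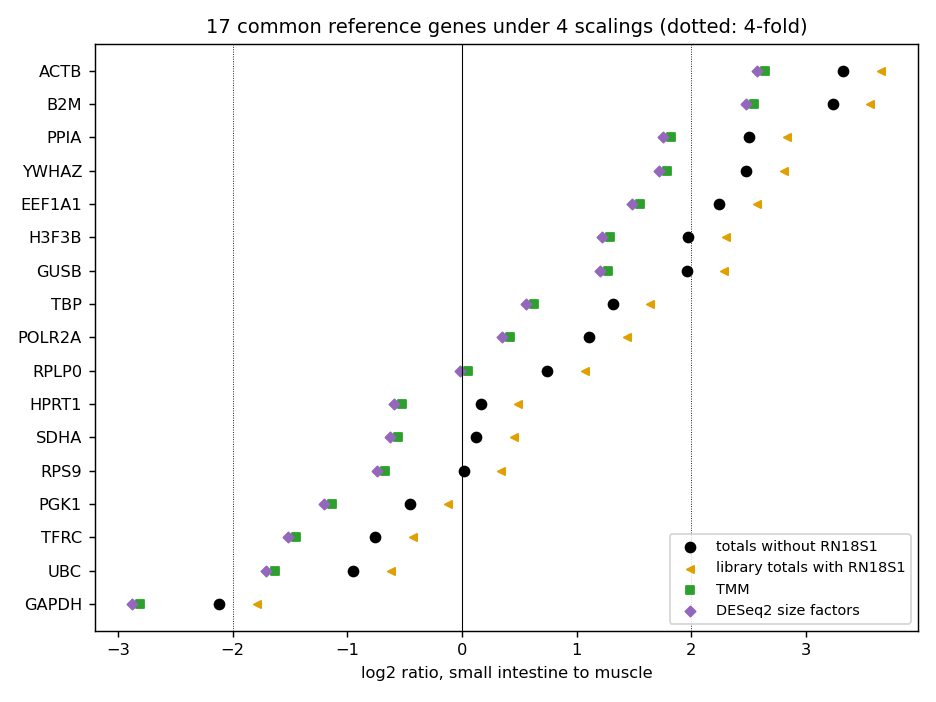
The log2 ratio of small intestine to muscle (horizontal axis) of 17 common reference genes, with library totals without RN18S1 (circles), with RN18S1 (triangles), with TMM (squares) and with DESeq2 size factors (diamonds). Under all 4 scalings GAPDH and ACTB lie at opposite ends, and ACTB and B2M stay more than 4-fold higher in intestine.

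Over all called rows, the share with no reads in the other tissue was 15.7% for intestine (642 rows) and 17.0% for muscle (158 rows). For the most read rows the counts in the other tissue were as follows. Among rows called higher in muscle with at least 10000 muscle reads, 54 in all, 11 had no intestine reads and 26 lay under 0.1% of their muscle level. Among rows called higher in intestine with at least 10000 intestine reads, 73 in all, none was at 0 in muscle and 2 lay under 0.1%. The lowest muscle levels were those of TM4SF4 (0.0921% of intestine), PRAP1 (0.0952%) and TM4SF5 (0.107%), and FABP1, DMBT1 and JCHAIN, genes of enterocytes, of mucosal defence and of plasma cells, lay at 0.189%, 0.196% and 0.219%. What gave these reads was not tested.

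The called rows were set beside the organoid libraries. Of the 4089 rows called higher in intestine, 2743 (67.1%) had at least 0.25 times the intestine level in both organoid libraries, and 917 (22.4%) were below it in both. Of the 932 rows called higher in muscle, 110 (11.8%) had at least 0.25 times the muscle level in both. The same shares over all rows tested were not computed, so these shares do not set the called rows apart from other rows. The called rows were also picked for a high level in the tissue used here as the reference. The plasma and B cell list summed to 5554 RPM in intestine, 66.2 in muscle and 224 in P5 organoids. The enteroendocrine list summed to 821, 34.5 and 14.2, and the epithelial list to 10365, 132 and 19036.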

How the data were processed

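Libraries were prepared with the Lexogen QuantSeq kit, which reads the 3′ ends of polyadenylated RNA. The authors aligned the reads with Bowtie2 and deposited raw counts per gene symbol, with unique and multiple alignments counted by Bedtools coverage. The genome build, the annotation and the strand setting are not given in the sources used here. Members of a family with near-identical sequence, and genes that overlap, may therefore share reads. The authors normalised by quantiles with edgeR, which is an alternative here.

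From the deposited counts, counts per 1000000 reads (RPM) were computed with library totals without RN18S1 with pandas 2.3.3 and scipy 1.17.1 under Python 3.11.15. With 1 library per tissue there was no test. Rows with at least 50 reads in either library were called at a ratio of at least 4-fold, counts under 3 were taken as 3 in medians and calls, and exact 95% Clopper-Pearson intervals were computed from the reads of both libraries. Such reads carry no molecular identifiers, so intervals and bounds cover counting error only. The ratio, interval and calls were checked on simulated counts.

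The 48 gene lists (1114 genes) and 28 families were chosen with earlier results of these data known. Genes named are members of these lists and families, the 12 largest and 12 smallest ratios, the 8 most read rows of each tissue and the 8 most read rows within 1.25-fold. Examples within a list, and rows that overlap a named gene, were picked after their values were seen. Some genes are not reported here. RefSeq (assembly ARS-UCD2.0) was used for biotypes and overlaps only. Alternatives were RN18S1 kept, mitochondrial genes left out, TMM, upper-quartile and quantile scaling (edgeR 4.0.16, limma 3.58.1, R 4.3.3), DESeq2 1.42.0 size factors, other read minimums, log2(RPM + 1), rows summed by symbol, libraries thinned to 1 depth, and a 2-fold limit.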

Additional observations from a re-analysis of the deposited data

How the results depend on the processing

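Each tissue has 1 library, so no library could be left out and nothing here measures variation between animals. No paired analysis was possible because each group has 1 library. Of 304 genes named, 207 were at least 4-fold apart. No minimum of reads was required for this count, so it can include genes with too few reads to be tested. All 207 kept their direction under every scaling, on the log2(RPM + 1) scale, with rows summed by symbol and with thinned libraries. Between 190 (TMM, upper-quartile and DESeq2 scaling) and 207 stayed at least 4-fold apart. With other library totals, TMM, upper-quartile and DESeq2 scaling, the kept direction was fixed in advance. These shift all rows by 1 constant, too small to reverse a 4-fold difference. Summing by symbol changes no value of these genes, which have 1 row each. The number of rows called higher in intestine was 2594 with quantile normalisation, 2699 with at least 200 reads and 6841 at a 2-fold limit, against 4089. The number called higher in muscle was 1458 with upper-quartile scaling, 1427 with DESeq2 size factors, 1553 with quantile normalisation, 1439 with at least 10 reads, 1590 with no filter and 1681 at 2-fold, against 932. The median log2 ratio of 0.96 was 1.29 with RN18S1 kept, 0.86 without the mitochondrial genes, 0.28 with TMM, 0.16 with upper-quartile scaling, 0.21 with DESeq2 size factors, 0.11 with quantile normalisation, 0.63 with no filter, 0.87 on the log2(RPM + 1) scale and 0.90 with thinned libraries. The scalings differ by construction in which rows set the level. The median of the fatty acid oxidation list went from 0.68 to -0.07 with DESeq2 size factors, and that of the adipocyte list from 0.93 to -0.55 with at least 10 reads. The ribosomal, endothelial, enteric neuron, mitochondrial genome and cardiac lists also changed sign under at least 1 setting.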

Other observations

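By RefSeq biotype (assembly ARS-UCD2.0), protein-coding genes made up 3596 (87.9%) of the rows called higher in intestine and 774 (83.05%) of those called higher in muscle. Long non-coding RNAs made up 142 (3.47%) and 70 (7.51%), against 244 (2.74%) of the rows within 4-fold. Of 906 genes of the lists and families that were found in RefSeq, 124 overlapped another row with reads, and for 44 of them that row had near-equal counts.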
